A study of Mus musculus with 2 samples.

Results

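SR proteins, hnRNPs, splicing kinases and their partners were examined in keratinocytes sorted from mouse dorsal skin. Members were the genes whose symbols in the deposited tables belong to the families Srsf, Tra2, Hnrnp, Clk, Srpk, Srrm, U2af, Sf3a, Sf3b, Esrp, Rbfox, Mbnl and Ptbp. The name pattern matched 68 of 50559 genes, and leaving out 2 pseudogenes, Hnrnpa1l2-ps and Hnrnpa1l2-ps2, gave 66 members. All samples belong to 1 group of 2 libraries, replicate 1 and replicate 2. The mice carried homozygous floxed Polr2b with GFP (Polr2b.fl.fl.GFP) and K14Cre, a Cre recombinase driven by the keratin 14 promoter, which is active in basal keratinocytes. Live GFP+ cells came from mice at postnatal day 21, when hair follicles rest (telogen). Both libraries carry the floxed allele and Cre, so no value here is set against cells without them, and the labels do not give the number of animals or any pooling. The floxed gene Polr2b, a large subunit of RNA polymerase II, was counted 3241 times in replicate 1 and 2627 times in replicate 2. The stated purpose was to set steady-state RNA beside nascent RNA, and the nascent RNA was not analysed here.

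Before an mRNA leaves the nucleus, its introns are removed by the spliceosome, a machine of small nuclear RNAs and proteins. SR proteins carry arginine-serine repeats, bind exonic enhancers and mostly promote the use of nearby splice sites, whereas hnRNPs coat nascent RNA and often repress them. CLK and SRPK kinases phosphorylate the arginine-serine repeats and so set where SR proteins reside and how they act. In epithelia, ESRP proteins enforce an epithelial pattern of alternative exons.

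Replicate 1 held 36692204 counts and replicate 2 held 33489967 counts. Levels are given as CPM, the count scaled to a common library total, or as TPM, which is also divided by the deposited gene length. Markers of the labelled cell type were high, with 10 of 10 basal keratinocyte genes and 11 of 11 cell junction genes past 10 CPM in both libraries. Fibroblast and myeloid markers were high too, with 10 of 10 genes of each list at that level and a median of 906 TPM for the myeloid list, 294 TPM for fibroblasts and 221 TPM for basal keratinocytes. The fibroblast markers summed to 14985 CPM in replicate 1, against 7463 in replicate 2, the basal keratinocyte markers to 14128 CPM in replicate 1, against 19818 in replicate 2, and the junction genes to 9165 CPM in replicate 1, against 12166 in replicate 2. In such bulk samples, fewer cells of a type and less RNA per cell cannot be told apart. Xist, the RNA of the inactive X chromosome, had 112587 counts in replicate 1 and 11 in replicate 2, and its part in the differences between the libraries was not tested.

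Promoter sequences are shown for the 2 members with the highest and the 2 with the lowest TPM among the 44 members with a single start site window in RefSeq, as the ends of the range of levels. Each window runs from 250 bases before to 50 bases after the annotated start on build GRCm38.p6, 5' to 3' on the gene's strand, and CG dinucleotides, which read the same on both strands, are in capitals.
Hnrnpk (chr13:58402068-58402367, minus strand): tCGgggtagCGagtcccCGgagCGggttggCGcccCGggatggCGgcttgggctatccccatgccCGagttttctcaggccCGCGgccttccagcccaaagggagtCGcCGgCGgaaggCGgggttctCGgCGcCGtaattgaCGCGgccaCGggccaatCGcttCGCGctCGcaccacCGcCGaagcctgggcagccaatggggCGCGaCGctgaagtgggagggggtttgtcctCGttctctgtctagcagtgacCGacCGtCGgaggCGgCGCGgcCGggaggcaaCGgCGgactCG
Ptbp1 (chr10:79854182-79854481, plus strand): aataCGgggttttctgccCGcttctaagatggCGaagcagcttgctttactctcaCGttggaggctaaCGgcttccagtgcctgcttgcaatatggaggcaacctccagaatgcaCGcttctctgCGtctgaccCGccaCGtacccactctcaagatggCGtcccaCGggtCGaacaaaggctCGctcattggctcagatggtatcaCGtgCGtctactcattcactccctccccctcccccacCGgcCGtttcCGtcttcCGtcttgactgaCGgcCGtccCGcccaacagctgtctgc
Srrm3 (chr5:135817856-135818155, plus strand): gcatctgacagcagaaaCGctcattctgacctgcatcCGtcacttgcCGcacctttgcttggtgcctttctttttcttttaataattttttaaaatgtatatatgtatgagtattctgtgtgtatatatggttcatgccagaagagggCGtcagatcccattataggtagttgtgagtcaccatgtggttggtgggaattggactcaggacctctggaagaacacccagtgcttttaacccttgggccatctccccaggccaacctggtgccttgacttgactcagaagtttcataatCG
Rbfox3 (chr11:118760992-118761291, minus strand): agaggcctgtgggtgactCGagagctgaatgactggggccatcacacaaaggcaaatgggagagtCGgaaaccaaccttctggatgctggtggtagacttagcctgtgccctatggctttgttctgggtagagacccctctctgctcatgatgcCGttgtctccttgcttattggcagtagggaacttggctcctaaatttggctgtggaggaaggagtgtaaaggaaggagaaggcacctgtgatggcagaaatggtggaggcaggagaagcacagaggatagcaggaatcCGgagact
These windows held 40 CG dinucleotides in Hnrnpk, 22 in Ptbp1, 5 in Srrm3 and 4 in Rbfox3. Of the 44 members with 1 window, 41 had 10 or more CG dinucleotides (93.2%), against 75.9% of 9422 single-window genes that reached 1 CPM in each library and 43.3% of all 22421 single-window genes. The threshold of 10 was chosen after the counts were seen, and Mbnl2 lay just inside it at 10. The 3 members below it were Rbfox3, Srrm3 and Srpk3, the muscle-enriched SRPK paralog with 5 CG dinucleotides. Among all 56 members with any window, Rbfox1 was the one further member with every window below 10, at 3 and 7. A low level did not always go with few CG dinucleotides, as Srsf12 had 26 and Clk2 27. Across the 44 members Spearman's rho of CG count and mean TPM was 0.10, a description over genes of the same libraries.

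**Figure D1:**
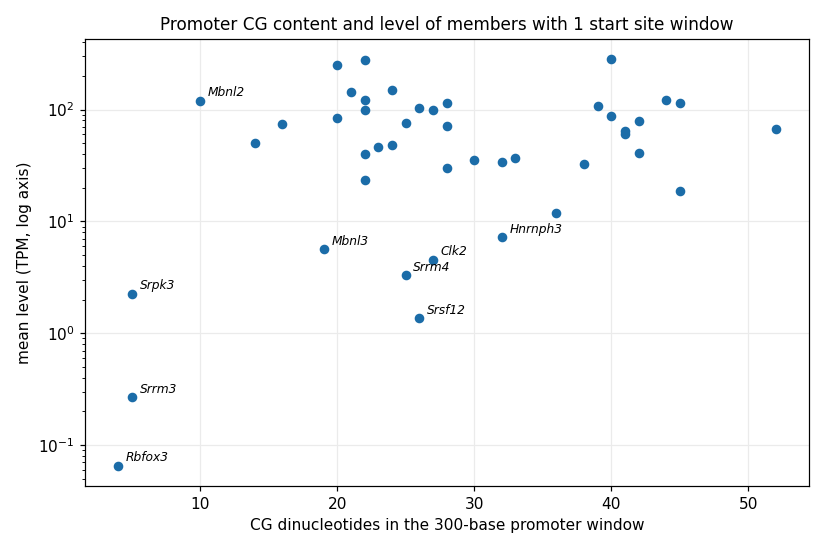
CG dinucleotides in the 300-base promoter window (x axis) and mean TPM over both libraries (y axis, log scale) for the 44 members with 1 window, 1 point per gene. Rbfox3, Srrm3 and Srpk3 lie apart at 4 to 5 CG dinucleotides, while Srsf12 and Clk2 combine low levels with 26 and 27.

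The first question was how strongly these factors were expressed. Splicing factor RNAs were abundant: 63 of 66 members reached 1 CPM in both libraries and 58 reached 10 CPM in both, against 31.3% and 18.8% of all genes in the tables. The tables include 17803 genes without a count in either library. Of the genes that reached 1 CPM in both libraries, 60.2% reached 10 CPM in both. These are levels of bulk samples in which fibroblast and myeloid markers were high too. The median member stood at 63.1 TPM, beside 12.96 TPM for the 15833 genes that reached 1 CPM in each library (detected genes), and 24 members lay in the top 10% of those genes. Together the members made up 0.923% of all counts of replicate 1 and 0.925% of those of replicate 2. No member lacked counts in either library. With 2 libraries of 1 group a level has no test, so values are given for replicate 1 and then replicate 2, or as mean ± SD with n = 2.

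Among SR proteins, Srsf5 was the highest, at 223 TPM in replicate 1 and 275 TPM in replicate 2 (249 ± 36.2). Srsf6 followed at 119 and 113 TPM and Srsf2, a binder of exonic enhancers, at 104 and 110 TPM. The values of Srsf6 and Srsf2 did not overlap, but with GENCODE lengths their order turned, at 173 TPM for Srsf6 and 201 TPM for Srsf2. Those of Srsf2 and the next gene, Tra2b, overlapped. Tra2b and Tra2a bind purine-rich enhancers. Tra2b had 105 and 95.6 TPM and Tra2a 80.6 and 71.9 TPM, a ratio of 1.30-fold in replicate 1 and 1.33-fold in replicate 2. Srsf1, the founding member of the family, had 43.8 and 36.9 TPM. Srsf4 was low at 10.1 ± 0.564 TPM, and 43.0% of its annotated exon bases overlap Gm12992 on the opposite strand. Srsf12 was lowest at 1.37 and 1.36 TPM. The remaining 5 members, Srsf3, Srsf7, Srsf9, Srsf10 and Srsf11, had means of 32.3 to 78.4 TPM.

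The hnRNPs reached the same height. Hnrnpk, a KH-domain protein that binds C-rich RNA, was the highest member of all classes at 277 TPM in replicate 1 and 288 TPM in replicate 2, though with GENCODE transcript lengths its mean of 312 TPM lay below Hnrnpa3 at 343 and Ptbp3 at 332 TPM. Hnrnpl, which binds CA repeats, had 133 and 153 TPM. Hnrnpa3 had 121 and 125 TPM, but 13 near-identical copies elsewhere in the transcript set held counts equal to 10.9% of its own in replicate 1 and 9.69% in replicate 2, so its level is uncertain. Hnrnpc, a U-tract binder, had 114 and 130 TPM. Of the 20 hnRNPs, 19 passed 10 CPM in both libraries, the exception being Hnrnph3 at 7.47 and 7.94 CPM. Hnrnpr was lowest per length, at 6.20 and 5.86 TPM, over a deposited length of 22053 bases. With the median length of its GENCODE transcripts, 2665 bases, its mean was 42.5 TPM, so its low rank rests on the deposited length. The class medians of SR proteins and hnRNPs did not differ beyond the libraries' spread, with a difference of 0.00 ± 0.28 on the log2(TPM + 0.5) scale, 0.20 in replicate 1 and -0.19 in replicate 2.

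The median of the kinase genes was lower than that of the SR proteins. Clk1, which phosphorylates SR proteins in the nucleus, was the highest kinase at 165 and 161 TPM. It stood 4.59-fold above Clk4 and 4.37-fold above Clk3 with deposited lengths, and 2.94-fold and 3.85-fold with GENCODE lengths. Clk3 had 36.9 and 37.7 TPM and Clk4 37.3 and 33.8 TPM, and with these deposited lengths the order of the paralogs turned between the libraries. With GENCODE lengths Clk4 had a mean of 81.0 TPM and Clk3 one of 61.9 TPM, so their order rests on the lengths used. Clk2 had only 4.86 and 4.25 TPM. Srpk1 and Srpk2, which act on SR proteins before nuclear import, had 28.8 and 30.7 TPM and 21.9 and 20.3 TPM, while Srpk3 stood at 2.20 and 2.34 TPM, or 66 and 64 counts. The ratio of Srpk1 to Srpk2 was 1.41-fold with deposited lengths and 4.73-fold with GENCODE lengths, which put Srpk1 at 131 TPM. The median kinase lay 1.25 ± 0.23 below the median SR protein (log2), with -1.41 in replicate 1 and -1.09 in replicate 2. Over GENCODE transcript lengths this difference was -0.66, so its size rests on the gene lengths used.

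Of the SR-related matrix proteins, Srrm2, a scaffold of nuclear speckles, had the largest CPM of any member, at 862 in replicate 1 and 904 in replicate 2, and 178 and 187 TPM. Srrm1 was at 87.0 and 88.6 TPM. Srrm4, a regulator of neural microexons, had 467 and 310 counts (12.7 and 9.26 CPM), and its relative Srrm3 had 47 and 18 counts. Of 8 neuron markers, 1 reached 1 CPM in both libraries, Map2 at 25.9 and 30.7 CPM, which made up most of the list's sum of 28.3 CPM in replicate 1 and 33.1 in replicate 2. Snap25 had no count in either library, which allows up to 3 counts per library.

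All 11 genes of 3' splice site recognition passed 10 CPM in both libraries. Sf3b1, which contacts the branch site, led with deposited lengths at 158 and 145 TPM, followed by Sf3b4 at 101.2 and 106 TPM and Sf3b3 at 85.9 and 81.3 TPM. U2af2, the reader of the polypyrimidine tract, and U2af1, the reader of the terminal AG, had 64.4 ± 1.71 and 61.9 ± 9.94 TPM with deposited lengths. With GENCODE lengths U2af2 had 165 TPM and U2af1 58.5 TPM, so their closeness rests on the deposited lengths. Sf3a3 was lowest at 21.4 and 25.4 TPM. The order of the class rests on length too, since with GENCODE lengths U2af2 stood above Sf3b1 at 160 TPM and Sf3b5 was lowest at 9.27 TPM.

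Regulators known for tissue-restricted use ranged from Ptbp1, at a mean of 277 TPM, to Rbfox3, at 0.0657 TPM. Esrp1 had 109 TPM in replicate 1 and 116 TPM in replicate 2, and Esrp2 had 58.4 and 83.1 TPM, a ratio of 1.87-fold in replicate 1 and 1.39-fold in replicate 2. Ptbp1, a repressor of neural exons, was at 263 and 290 TPM, 23.5-fold above Ptbp2, the paralog that replaces it in neurons, at 14.4 and 9.62 TPM. Replicate 1 gave 18.3-fold, replicate 2 gave 30.1-fold, and GENCODE lengths gave 12.9-fold over both. Ptbp3, best known from blood cells, stood high too at 146 and 137 TPM. The order of Ptbp1 and Ptbp3 depended on gene length, as Ptbp1 was 1.95-fold above Ptbp3 with deposited lengths and 0.707 times its level with GENCODE lengths. Mbnl1 and Mbnl2, muscleblind proteins linked to adult splicing patterns, had 174 and 142 TPM and 130 and 110 TPM, while Mbnl3 had 5.51 and 5.73 TPM over 15261 bases and 36.1 TPM with GENCODE lengths. Rbfox2 had 81.6 and 63.1 CPM but 8.21 and 6.36 TPM over a deposited length of 24610 bases, and 86.5 TPM with GENCODE lengths. Rbfox1 had 18 and 5 counts, and Rbfox3, the neuronal antigen NeuN, had 29 and 19.

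**Figure D2:**
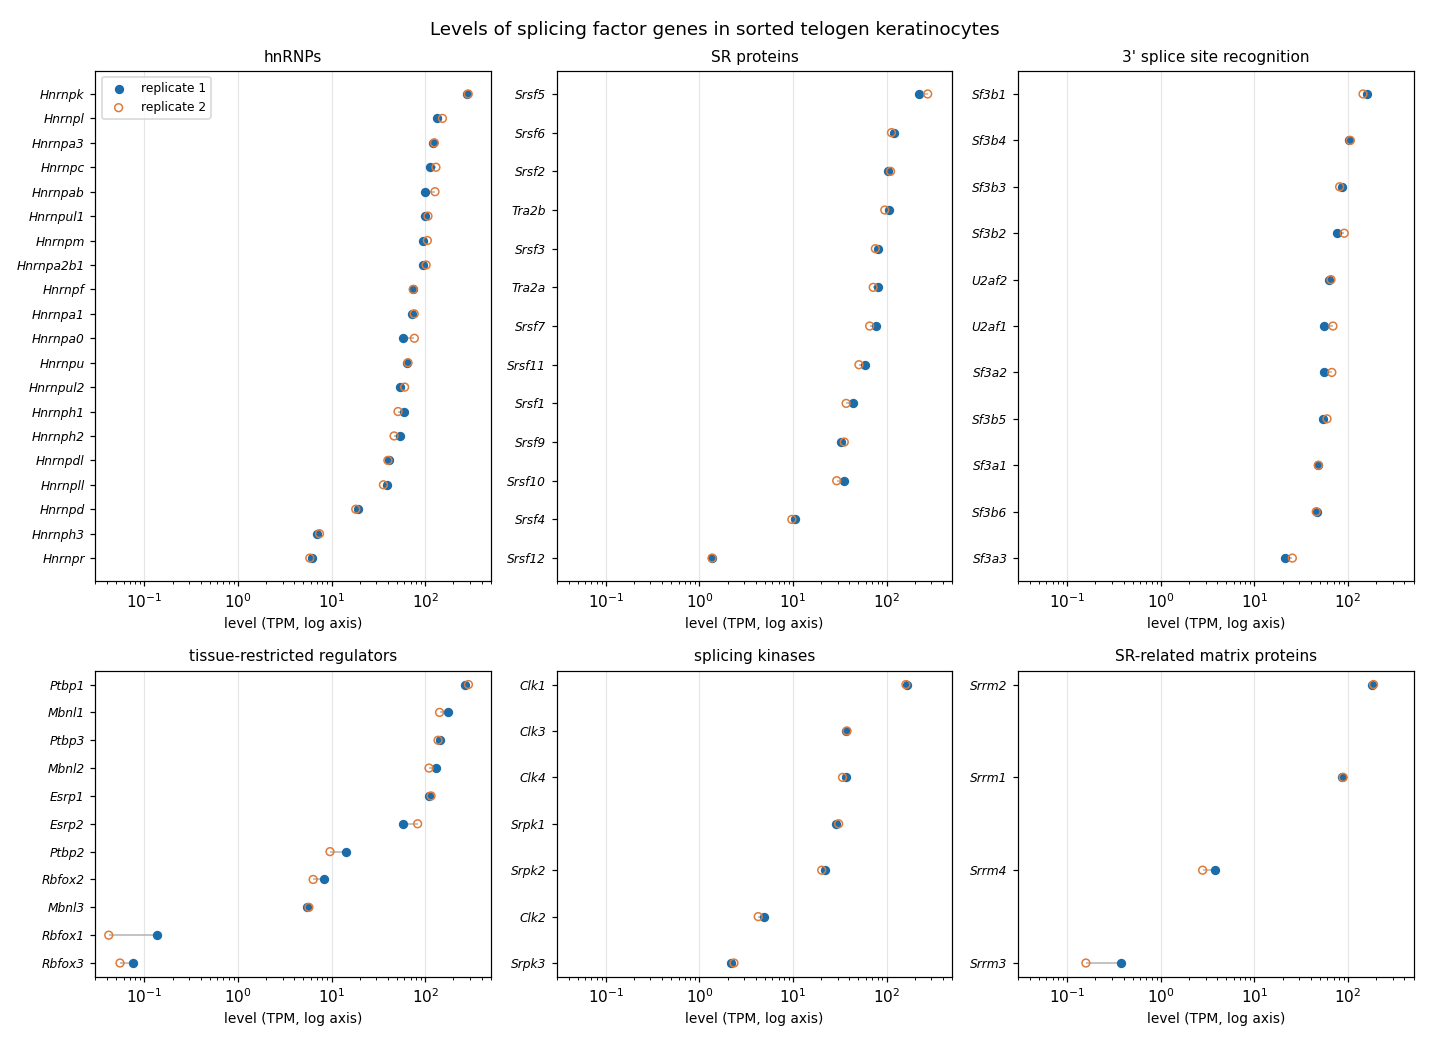
TPM of each member (x axis, log scale) in replicate 1 (filled blue) and replicate 2 (open orange), 1 panel per class and 1 row per gene, joined by a grey line. The 2 libraries lie close together for most members, whose median is 63.1 TPM, while Rbfox1, Rbfox3 and Srrm3 fall below 1 TPM.

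Other genes of the splicing machinery gave the setting for these levels. The members' median exceeded that of 19 snRNP proteins by 0.50 ± 0.22 on the log2(TPM + 0.5) scale, 0.35 in replicate 1 and 0.65 in replicate 2. With GENCODE lengths it was 1.43 and with CPM 2.55, so its size rests on the lengths used. Medians were 43.9 TPM for snRNP proteins, 30.5 TPM for 20 Prp proteins and helicases, 44.4 TPM for 9 exon junction genes, 40.2 TPM for 38 other regulators, 18.2 TPM for 10 genes of nonsense-mediated decay and 24.5 TPM for 12 related kinases. The DEAD-box helicase Ddx5 exceeded every member at 766 and 769 TPM. The other lists were led by the Sm protein Snrpd3 (102 TPM), the spliceosome core protein Prpf8 (129 TPM), Magoh (111 TPM), the decay helicase Upf1 (59.4 TPM) and Hipk3 (110 TPM). Their lowest genes were Prpf4 (7.37 TPM), Magohb (4.31 TPM), Upf3b (2.19 TPM), Nova2 (0.259 TPM) and Dyrk4 (0.0577 TPM), and Snrpn was listed at 0 in both libraries.

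**Figure D3:**
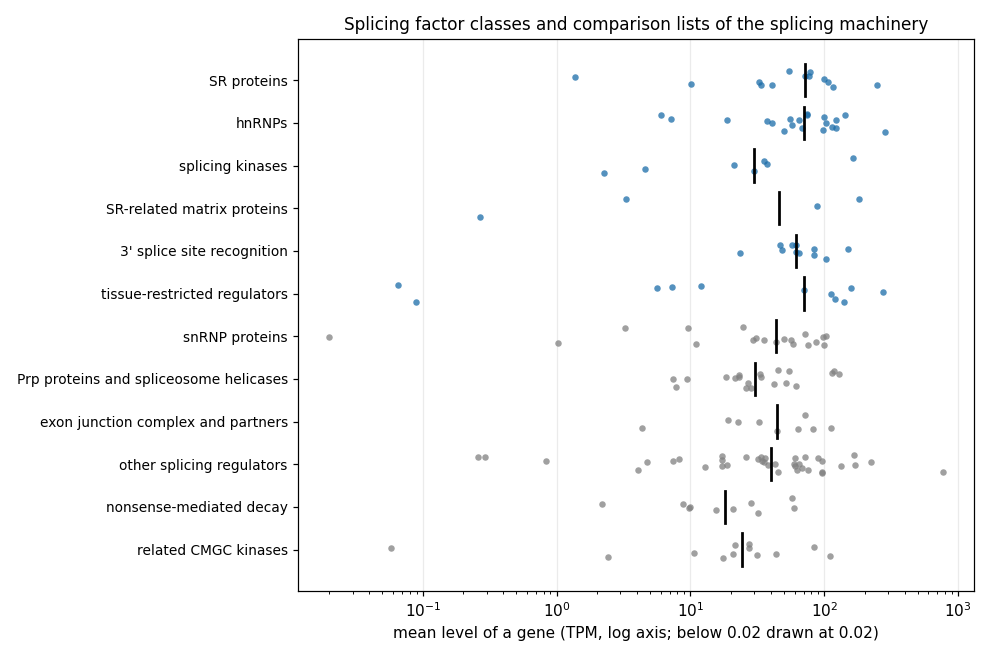
Mean TPM over both libraries (x axis, log scale), 1 point per gene, for the 6 classes of members (blue) above the comparison lists of the splicing machinery (grey), with a black bar at each median; a gene listed at 0 is drawn near the left edge. SR proteins and hnRNPs have medians of 71.7 and 71.0 TPM, above the median of every comparison list.

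The second question was how far the libraries agreed on these genes. Members varied little, with a median absolute log2 ratio of 0.12, beside 0.17 over the 9526 genes that reached 10 CPM in each library. Of 66 members, 97.0% lay within 1.5-fold, against 93.0% of the genes at 10 CPM. Counts of each gene were tested against the ratio of library totals by an exact binomial test (two-sided), with Benjamini-Hochberg adjustment over the 23690 genes with 10 or more counts in all. This test covers counting error only and compares these libraries, not a condition. By it 23 members were higher in replicate 1 (34.8%), against a background of 27.2%, and 21 were lower (31.8%), against 16.9%. Calls are more frequent in deeply counted genes: among genes past 10 CPM in both libraries, 34.5% of all genes were higher and 29.4% lower in replicate 1. Of the 58 members at that level, 20 were higher, near the first share, and 21 lower, somewhat above the second. This contrast was not tested. With TMM library sizes 15 of 66 members were higher and 29 lower, against 21.4% and 22.7% of all genes tested. With DESeq2 size factors 14 of 66 were higher and 32 lower, against 21.0% and 23.2%. Shares past 10 CPM were not computed under these scalings, so these contrasts are not matched for count depth. Against the spread between the libraries, at a coefficient of variation of 22.7% in edgeR's exact test, 0 members and 0.279% of genes had an adjusted p under 0.05. At an unadjusted p under 0.05 edgeR called 0 members and 7.18% of genes. Its spread is estimated from the same 2 libraries that it compares, so it gives no verdict on single differences.

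Within this small range SR proteins and hnRNPs lay mostly on opposite sides of 0, a difference between classes that was not tested. SR proteins were mostly higher in replicate 1, with 8 of 13 higher and 2 lower by the binomial test and a median log2 ratio of 0.11. The hnRNPs were mostly lower, with 3 of 20 higher, 11 lower and a median of -0.07. For all genes tested the median was 0.07, with 27.2% higher and 16.9% lower, and past 10 CPM 34.5% and 29.4%. Srsf10, a sequence-specific activator that turns repressor when dephosphorylated, had 92.3 CPM in replicate 1 and 76.2 in replicate 2 (log2 ratio 0.27, exact 95% interval 0.20 to 0.35). Srsf1 had 114 and 95.8 CPM (0.25), Srsf7 88.0 and 74.6 CPM (0.24) and Srsf11 165 and 141 CPM (0.22). Srsf5 and Srsf2 were the 2 lower SR genes, at 150 and 184 CPM (-0.29) and 150 and 158 CPM (-0.07). Hnrnpa0 was the lowest hnRNP by ratio, at 63.2 CPM in replicate 1 and 82.7 in replicate 2 (-0.38), followed by Hnrnpab at 103 and 130 CPM (-0.34), of whose exon bases 29.1% overlap Phykpl on the opposite strand. The 3 higher hnRNPs were Hnrnph1 at 149 and 127 CPM (0.22), its paralog Hnrnph2 at 53.5 and 46.5 CPM (0.20) and Hnrnpll at 48.9 and 45.2 CPM (0.11, binomial adjusted p = 0.0492). The call of Hnrnpll was lost without the filter on low counts (binomial adjusted p = 0.0659), as was the lower call of Hnrnpa3 (0.0616).

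The class medians lay 0.18 apart on the log2 scale. A library scaling shifts all ratios by nearly the same amount, so it moves this gap only through the pseudocount, but it sets on which side of 0 a gene falls. Scaling to the junction genes shifts log2 ratios by 0.41, and 12 of 13 SR proteins and 18 of 20 hnRNPs were then higher in replicate 1 and none lower, against a background of 62.3% higher and 3.05% lower. SR proteins had 5 higher and 2 lower with TMM library sizes, and 4 higher and 3 lower with DESeq2 size factors. The hnRNPs had 2 higher and 13 lower under each of these scalings. Over all genes tested, 21.4% were higher and 22.7% lower with TMM, and 21% and 23.2% with DESeq2, not matched for count depth. Base composition and gene length moved with the ratios, and their part in the ratios was not tested. Over genes at 1 CPM in both libraries, Spearman's rho of log2 ratio and transcript GC content was -0.27 (n = 14255 genes), and over the members it was -0.33 (n = 66), as descriptions across genes that share 2 libraries. With the deposited gene length it was 0.17 over 15833 genes and 0.47 over the members. Both classes are AT-rich, with median GC contents of 44.0% for SR proteins and 44.8% for hnRNPs. In the lowest GC tercile, up to 47.6%, the 9 SR proteins had a median log2 ratio of 0.17 and the 13 hnRNPs -0.05, beside 0.14 over all 4752 genes of that tercile. Of the 32 members without exon overlap or near-identical copy, 14 were higher and 4 lower, beside 27.2% and 16.9% of all genes tested. No share was computed for genes picked the same way. Of these members, 5 of 7 SR proteins were higher and none lower, and 3 of 7 hnRNPs were higher and 3 lower. Their median log2 ratios were 0.17 for those SR proteins and 0.06 for those hnRNPs.

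**Figure D4:**
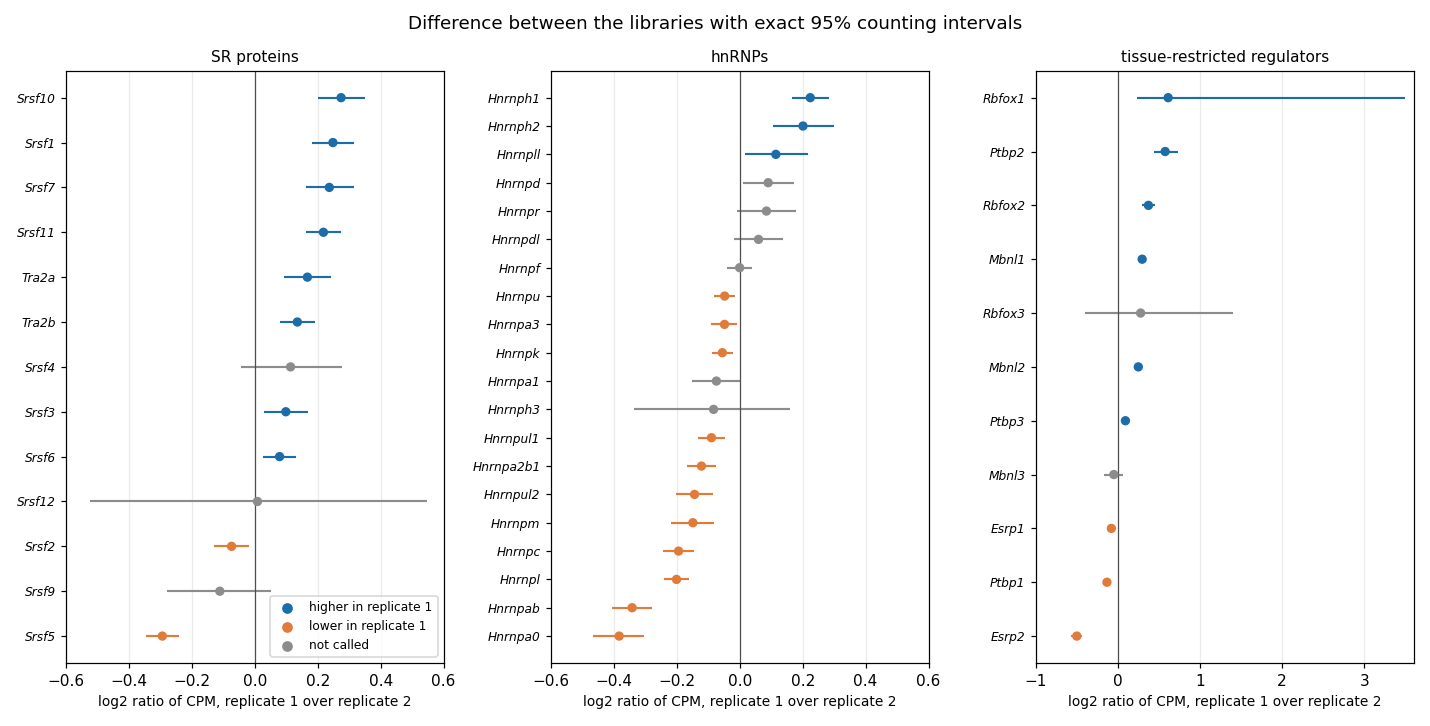
Log2 ratio of CPM, replicate 1 over replicate 2, for SR proteins, hnRNPs and tissue-restricted regulators, 1 row per gene, with exact 95% counting intervals as lines; blue is higher, orange lower in replicate 1 by the binomial test and grey not called. With scaling to total counts SR proteins lie mostly right of 0 and hnRNPs mostly left, from -0.38 to 0.22; scaled to the junction genes, most hnRNPs are higher. The third panel has a wider axis, and points carry a pseudocount of 0.5 CPM that the intervals do not.

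Tissue-restricted regulators had calls in both directions, with 6 of 11 higher and 3 lower. Over all genes tested 27.2% were higher and 16.9% lower, and over genes past 10 CPM 34.5% and 29.4%. Esrp2 was lower at 96.1 CPM in replicate 1 and 136 in replicate 2, a log2 ratio of -0.50 (binomial adjusted p = 4.13e-54, edgeR adjusted p = 1). Scaled to the junction genes it was the 1 member still called lower, but its log2 ratio there was only -0.10. Its annotated exons overlap Nfatc3 and 1810019D21Rik over 5.05% and 2.74% of their bases. Esrp1 was lower too, at 174 CPM in replicate 1 and 185 in replicate 2 (-0.08). Ptbp2 was higher at 27.0 CPM in replicate 1 and 17.98 in replicate 2 (0.57, binomial adjusted p = 2.05e-14, edgeR adjusted p = 1), as were Rbfox2 (0.37), Mbnl1 at 533 and 435 CPM (0.29) and Mbnl2 at 251 and 212 CPM (0.25). Srrm4 was higher too (0.44). Called and beyond 1.5-fold on the log2(CPM + 0.5) scale were 2 members, Srrm3 (0.78) and Rbfox1 (0.61), on the low counts given above. Higher by this rule were thus 3.03% of members, against a background of 11.4%, and 0 were lower, against 3.59%. These backgrounds cover all genes tested and are not matched for count depth. Whether called or not, 97.0% of members lay within 1.5-fold, beside 93.0% of genes at 10 CPM in both libraries. The fibroblast list was higher in replicate 1 for all 10 genes, at a median of 0.96, and the junction list lower for 9 of 11, at a median of -0.42. Also higher were 6 of 6 tested mural and smooth muscle genes (median 0.92), 5 of 7 endothelial genes (0.55) and 3 of 8 skeletal muscle genes (0.27). In these 3 lists 0 genes were lower. Basal keratinocyte genes had 1 of 10 higher and 8 lower, and myeloid genes 3 of 10 higher and 4 lower. The part of these cell types in the ratios of Esrp2, Ptbp2, Rbfox2, Mbnl1 and Mbnl2 was not tested.

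Kinases and 3' splice site genes lay between -0.32 and 0.18. The counts below stand beside 27.2% higher and 16.9% lower over all genes tested with total counts. Past 10 CPM these shares were 34.5% and 29.4%. Of the kinases 2 of 7 were higher in replicate 1 and none lower, Clk4 at 65.5 and 59.4 CPM (0.14) and Srpk2 at 88.3 and 81.5 CPM (0.12). Both calls ended with TMM library sizes (binomial adjusted p = 0.221 for Clk4 and 0.413 for Srpk2) and with DESeq2 size factors, under each of which 0 kinases were higher and 2, Clk3 and Srpk1, were lower. Of 11 genes of 3' splice site recognition, 2 were higher, Sf3b1 (0.13) and Sf3b3 (0.08), and 4 lower, U2af1 (-0.32), Sf3a2 (-0.27), Sf3b2 (-0.26) and Sf3a3 (-0.24). The call of Sf3b3 ended with TMM library sizes (binomial adjusted p = 0.904) and with DESeq2 size factors. The class then had 1 gene higher and 7 lower with TMM and 1 higher and 8 lower with DESeq2. For these counts and those of the kinases, the shares over all genes tested were 21.4% higher and 22.7% lower with TMM. With DESeq2 they were 21% and 23.2%. Srrm2 was lower (-0.07). The 3 X-linked members Hnrnph2, Srpk3 and Mbnl3 had ratios of 0.20, -0.07 and -0.05. Among comparison lists, snRNP proteins had 1 of 18 tested genes higher and 8 lower, Prp proteins and helicases 4 and 4 of 20, exon junction genes 1 and 4 of 9, other regulators 19 and 11 of 38, decay genes 2 and 1 of 10 and related kinases 7 and 2 of 11. Immediate early genes, which respond to cell isolation, had 0 of 14 higher and 12 lower, and summed to 21863 CPM in replicate 1, against 25081 in replicate 2.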

How the data were processed

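Total RNA from 2 libraries was depleted of ribosomal RNA and read as pairs of 150 bases, per the labels' protocols. Raw counts per gene and a gene length were deposited, made with featureCounts on mm39, per the submitters' processing notes; sources used here name no aligner, annotation or strand setting. Without a known strand setting, reads of overlapping antisense genes may not be told apart. CPM used the total count and TPM the deposited length. The fold between libraries is log2 of CPM + 0.5, replicate 1 over replicate 2, tested by the exact binomial test (scipy 1.17.1) at an adjusted p of 0.05, with exact (Clopper-Pearson) 95% intervals. edgeR 4.0.16 (exact test, common dispersion of an intercept-only fit) added the spread between libraries, and DESeq2 1.42.0 gave size factors. Both tests were run on simulated libraries, with counting error only for the binomial test and an added spread for edgeR. Neither setting matched the spread of these libraries, so the simulations do not show how often either test errs here. Intervals and the floor of 3 counts cover counting error only. Transcript lengths, GC and overlaps came from GENCODE M21 on GRCm38; near-identical copies were transcripts of other genes matching at 98% or more over 150 bases (blastn 2.17.0). RefSeq promoter windows (GRCm38.p6) matched 56 of 66 members by symbol, and all 66 matched a GENCODE name. Members, lists and classes were chosen with earlier results of these data known. Named with values were the 3 highest and the lowest of each class, members under 1 CPM, members beyond 1.5-fold and their paralogs, and the highest and lowest of each comparison list; others were chosen after their values were seen. The labels do not say that the libraries came from separate animals. Their Xist counts, 112587 in replicate 1 and 11 in replicate 2, show that they did not hold the same animals in the same shares. The number of animals behind each library is not given, so p-values apply to these samples alone. The binomial p-values hold no spread between samples. Only edgeR's exact test takes that spread into account.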

Additional observations from a re-analysis of the deposited data

How the results depend on the processing

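The number of the 66 members higher in replicate 1 was 15 with TMM library sizes, 14 with DESeq2 size factors and 58 when scaled to the junction genes. Over all genes tested the shares higher were 21.4%, 21% and 62.3%. The number of members was 0 in edgeR's exact test, against 0.279% of genes in either direction. It was 2 with a further 1.5-fold threshold, against 11.4% of genes. The number lower was 29 with TMM library sizes, 32 with DESeq2 size factors and 1 when scaled to the junction genes. Over all genes tested the shares lower were 22.7%, 23.2% and 3.05%. The number of members lower was 0 in edgeR's exact test and 0 with the 1.5-fold threshold, the latter against 3.59% of genes. Of the 32 members without an overlap or a near-identical copy, 14 were higher and 4 lower, beside 27.2% and 16.9% of all genes tested. None of these shares is matched for count depth. Leaving out overlaps and copies, like the use of GENCODE lengths, was chosen after seeing the data. When scaled to the junction genes the median log2 ratio of the members was 0.40, which follows the shift of 0.41 that this scaling gives to all genes (62.3% of them higher, 3.05% lower), and 16 called members with small negative ratios turned with it from lower to higher: Esrp1 (0.32), Hnrnpa2b1 (0.29), Hnrnpa3 (0.36), Hnrnpc (0.21), Hnrnpk (0.35), Hnrnpl (0.21), Hnrnpm (0.26), Hnrnpu (0.36), Hnrnpul1 (0.32), Hnrnpul2 (0.26), Ptbp1 (0.27), Sf3a2 (0.13), Sf3b2 (0.15), Srrm2 (0.34), Srsf2 (0.33) and Srsf5 (0.11). With CPM in place of TPM the class differences were -0.33 for SR proteins minus hnRNPs, -0.43 for kinases minus SR proteins and 2.55 for members minus snRNP proteins. GENCODE lengths gave a median of 79.6 TPM for the members, -0.66 for kinases minus SR proteins and 1.43 for members minus snRNP proteins. Left with either library alone, the members' median was 58.7 to 65.7 TPM, 63 to 64 reached 1 CPM and 58 to 59 reached 10 CPM. The same differences then ranged from -0.19 to 0.20, from -1.41 to -1.09 and from 0.35 to 0.65, and that of tissue-restricted regulators minus SR proteins from -0.41 to 0.33, so its sign depends on the library. No paired analysis was possible because the labels give a single group. Depth limits the lowest members: Rbfox1, with 18 and 5 counts, has an exact 95% interval of 0.23 to 3.50 on its log2 ratio.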
